A study of Mus musculus with 6 samples.

Results

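The 8 genes described here code for proteins that build, stabilise or surround the contractile apparatus of striated muscle: the muscle kelch genes Klhl31, Klhl40 and Klhl41, the Xin repeat genes Xirp1 and Xirp2, Cmya5, and the leiomodins Lmod2 and Lmod3. Cmya5 is a tripartite-motif-like protein and the leiomodins are actin nucleators, so these 3 genes are neither kelch nor Xin repeat genes. Every open-chromatin peak that the deposited table assigns to a member was taken, which gave 76 of the 75134 peaks, with coordinates on GRCm38. All 76 passed the low-count filter. Of these, 11 were annotated as promoter peaks and 65 lay elsewhere and are called distal. The genes were proposed with the same genotype comparison already in view, so every fold change and adjusted p-value below is a description of the members and not independent support.

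The libraries measured chromatin accessibility by ATAC-seq, in which a transposase cuts and tags open DNA, in nuclei from frozen skeletal muscle of mice. The labelled muscle was the quadriceps femoris, the large extensor of the thigh. Libraries 3, 4 and 8 were Prr14-WT and libraries 4, 5 and 7 were Prr14-KO, from here on WT and KO, with 3 libraries each. No treatment is stated for either group. The sources used here give no age, sex or strain, nor which part of Prr14 was deleted. Nothing says that the libraries came from separate animals, so a p-value here reflects only how far these libraries differ, and that spread may be technical.

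Kelch proteins of the BTB-kelch family carry a kelch beta-propeller that binds a partner and a BTB domain that can bind the ubiquitin ligase scaffold CUL3. In muscle, KLHL40 and KLHL41 are known for stabilising thin filament proteins, and loss of either, or of LMOD3, causes nemaline myopathy in people. Xin repeat proteins bind actin filaments at cell junctions and attachment sites of myofibrils, and CMYA5 (myospryn) binds desmin and other proteins near the Z-disc. The title of the study names the transcription factor MEF2C, and MEF2 factors are known activators of muscle genes at an A/T-rich site.

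The promoter sequences of 6 of the 8 members matched RefSeq's GRCm38.p6 promoter table, each as a window from 250 bases before to 50 bases after the RefSeq start site, and all 6 windows lay inside the member's promoter peak. Xirp1 and Lmod3 had no window, so no motif was searched at the Lmod3 promoter, whose peak was lower in KO. Printed here are the 250 bases upstream of the start for Xirp2 and Klhl41, whose promoter peaks were lower in KO and which alone among the 6 hold a MEF2 site, and for Klhl40, whose promoter peak was not called. The Klhl31 window belongs to a lower promoter peak too but held none of the motifs searched, and it is not printed because the deposited start site lies upstream of RefSeq's, so that the stretch may be transcribed. Capitals mark MEF2 matches and matches to the E-box CAGCTG, and all 3 genes lie on the plus strand, at chr2:67445752-67446001, chr2:69669870-69670119 and chr9:121777357-121777606.
Xirp2: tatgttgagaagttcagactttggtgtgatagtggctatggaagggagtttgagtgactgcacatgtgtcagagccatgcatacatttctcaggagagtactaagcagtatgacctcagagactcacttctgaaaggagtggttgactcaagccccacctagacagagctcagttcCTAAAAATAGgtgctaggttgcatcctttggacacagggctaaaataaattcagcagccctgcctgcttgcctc
Klhl41: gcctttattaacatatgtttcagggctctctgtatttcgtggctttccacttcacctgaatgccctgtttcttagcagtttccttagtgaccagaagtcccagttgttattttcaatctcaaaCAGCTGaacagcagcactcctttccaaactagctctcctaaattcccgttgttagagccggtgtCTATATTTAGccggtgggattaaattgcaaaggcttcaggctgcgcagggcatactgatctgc
Klhl40: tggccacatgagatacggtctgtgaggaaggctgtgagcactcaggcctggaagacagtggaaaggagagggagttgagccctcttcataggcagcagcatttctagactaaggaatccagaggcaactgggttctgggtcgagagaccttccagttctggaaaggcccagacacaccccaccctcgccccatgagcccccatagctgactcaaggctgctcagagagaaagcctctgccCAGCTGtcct

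The MEF2 match of Xirp2 ran from 74 to 65 bases before the start site and that of Klhl41 from 63 to 54 bases before it. Over all 32851 windows of the same length, 0.557% held a MEF2 match on either strand. An E-box stood in 3 of the 6 member windows against 16.3% of all windows. It lay 127 to 122 bases before the start in Klhl41, apart from the MEF2 match, 10 to 5 bases before it in Klhl40, and at the first transcribed bases in Lmod2. None of the 6 windows held an M-CAT element (CATTCC, in 14.7% of all windows), a MEF3 site (TCAGGTTTC, 0.429%), a CArG box (1.63%) or a TATA box (TATAAA, 13.6%). The Klhl41 and Xirp2 windows had the lowest GC content of the 6, at 46.3% and 48.3%, against 55.3% to 57.0% for Lmod2, Cmya5 and Klhl31, 57.3% for Klhl40 and a median of 52.7% over all windows. A match describes the letters of a window and does not show that a factor binds there.

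Libraries held 7608514 to 12061822 counts in peaks, and a member peak held 6 to 1340 counts, with a median of 87.5. Levels are counts per 1000000 reads in peaks (CPM) after TMM scaling, and a peak is called at an adjusted p below 0.05 in edgeR's quasi-likelihood test over all 73896 tested peaks. WT replicate 4 gave the highest level of the 6 libraries in 44 of the 76 member peaks, and in 24.8% of all peaks. Promoter peaks of the 7 muscle fibre markers were all open, with summed levels of 421 to 695 CPM in WT (695 in WT replicate 4) and 462 to 511 CPM in KO, and 1 of them, Myh4, was called lower. Endothelial marker promoters (3 of 4 with a tested peak, Pecam1 without) summed to 10.9 to 19.9 CPM in WT and 9.37 to 21.5 in KO. Those of smooth muscle and pericytes (4 of 4) summed to 26.8 to 39.1 against 28.5 to 35.1, and of fibro-adipogenic cells (4 of 4) to 57.4 to 66.2 against 56.9 to 72.4. The sums were 3.86 to 4.84 against 2.63 to 5.33 for macrophages (1 of 4, with no tested peak at Adgre1, Cd68 or Ptprc) and 9.94 to 13.4 against 10.04 to 16.4 for adipocytes (1 of 3, none at Adipoq or Fabp4). For satellite cells (2 of 3, none at Calcr) they were 18.9 to 26.99 against 23.5 to 25.7, and for cardiomyocytes (2 of 3, none at Nppa) 11.98 to 14.7 against 11.1 to 14.6. All of these ranges overlapped between WT and KO, and none of these promoters was called. WT replicate 4, the highest library for the fibre markers, was the lowest WT library for every other list except cardiomyocytes. The low end of the WT range in those lists is therefore its value, for example 10.9 CPM for endothelial and 18.9 CPM for satellite cell markers. Counted over all their peaks, promoter and distal, the fibre markers had 14 of 103 lower (13.6%, against 4.23% of all tested peaks) and 0 higher, and the satellite cell markers had 0 of 14 lower and 4 higher (28.6%, against 2.77%). The remaining lists together had 1 lower and 3 higher among 107 peaks. The part of these cell types in the results below was not tested.

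Member peaks were called lower in KO more often than higher. Of the 76, 13 were lower (17.1%, against 4.23% of all tested peaks) and 1 was higher (1.32%, against 2.77%). Among promoter peaks 4 of 11 were lower, in Klhl31, Klhl41, Xirp2 and Lmod3 (1.49% of all promoter peaks), and 0 were higher (1.58%). Of the 65 distal peaks, 9 were lower (5.08% of all distal peaks) and 1 was higher (3.14%). These shares were not matched for level or width. Member peaks had higher medians than all tested peaks, at 8.68 against 6.24 CPM and 911 against 743 bases. The median log2 fold change of KO over WT was -0.33 over the 11 promoter peaks, against 0.06 for all promoter peaks, and -0.17 over the 65 distal peaks, against -0.05 for all distal peaks. All 3 KO libraries lay below all 3 WT libraries in 20 member peaks (11.2% of all peaks) and above them in 3 (9.17%). In bulk muscle, fewer nuclei of a type and less open chromatin per nucleus cannot be told apart.

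**Figure D1:**
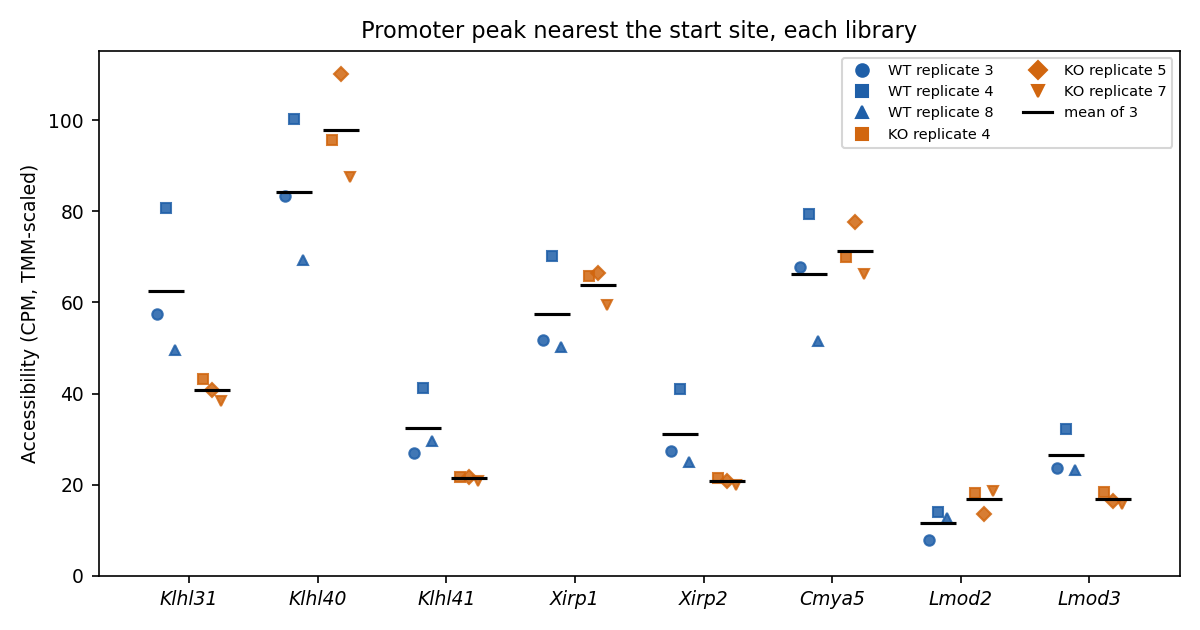
Accessibility (CPM after TMM scaling, linear axis from 0) of the promoter peak nearest the start site of each gene, one point per library and a bar at the mean of 3. KO points lie below all WT points for Klhl31, Klhl41, Xirp2 and Lmod3, and overlap WT for the other 4 genes, and WT replicate 4 is the top WT point in all 8 genes.

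**Figure D2:**
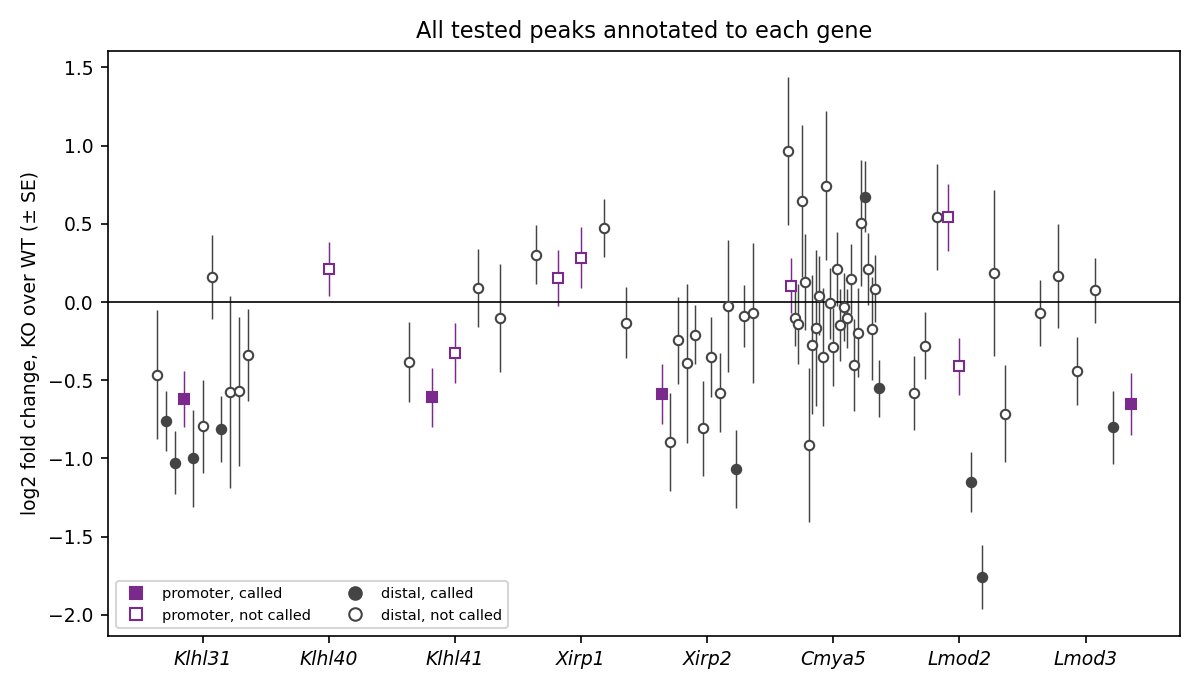
Log2 fold change of KO over WT, with its SE, for all 76 tested peaks, grouped by gene and ordered by distance from the start site within a gene. Filled symbols mark the 14 called peaks, squares promoter peaks and circles distal peaks. The lowest point is the Lmod2 peak at -1.76.

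The 4 lower promoter calls, with adjusted p-values from 0.0122 to 0.0357, depended on single libraries. Leaving out WT replicate 4 left 0 of the 11 promoters lower, as did leaving out KO replicate 5 or 7, whereas 2 remained when KO replicate 4 was dropped, those of Klhl31 and Lmod3. The direction stayed negative for all 4 in each of these fits. Dropping KO replicate 5 or 7 left the fold changes near their size, at -0.58 and -0.55 for Klhl31, -0.59 and -0.57 for Klhl41, -0.55 and -0.54 for Xirp2 and -0.60 and -0.58 for Lmod3. Dropping WT replicate 4 brought them to -0.36 for Klhl31, -0.37 for Klhl41, -0.31 for Xirp2 and -0.45 for Lmod3, so the first 3 shrank by more than 1.5 times on the log2 scale. Scaling by the authors' library factors moved the median of all peaks from -0.01 to 0.19 and left 0 lower promoters and 1 lower distal peak (1.02% of all peaks were lower), with 0 higher (2.19%). Those factors ran only from 0.977 to 1.035, while counts in peaks ran from 7608514 to 12061822. Depth differences between libraries therefore stayed largely in place in this fit. Over all 76 member peaks, 4 were lower without WT replicate 4 (1.89% of all peaks), 4 without KO replicate 5 (2.03%) and 6 after KO replicate 7 was dropped (2.80%). The count was 9 without KO replicate 4 (3.04%), 12 without WT replicate 3 (3.33%) and 12 without WT replicate 8 (4.18%). It was 12 with total counts in place of TMM (3.61%), 12 by DESeq2 (3.18%), 13 with no low-count filter (3.81%) and 13 with a filter of 30 counts in 3 libraries (4.88%). Higher member peaks numbered 2 without WT replicate 4 (2.97% of all peaks) and 2 with total counts (3.37%). They numbered 1 without WT replicate 8 (3.02%) or KO replicate 7 (2.77%), by DESeq2 (2.44%), with no filter (3.06%) and with the stricter one (3.75%). There were 0 without WT replicate 3 (1.72%) and after dropping KO replicate 4 (1.62%) or 5 (1.29%).

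Klhl31, a BTB-kelch protein of skeletal muscle, had 5 lower peaks of 11, and 10 of its 11 peaks had a negative fold change. With WT replicate 4 or KO replicate 5 left out, 1 lower peak remained, that 7279 bases upstream. Its promoter peak (chr9:77635859-77638176, ENSMUSG00000044938) had 57.5, 80.8 and 49.5 CPM in WT replicates 3, 4 and 8, and 43.3, 40.9 and 38.4 CPM in KO replicates 4, 5 and 7. The groups did not overlap, and the log2 fold change was -0.62 (SE 0.18, edgeR adjusted p = 0.0122).

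Upstream of Klhl31, 2 intergenic peaks were lower as well. The one centred 7279 bases upstream (chr9:77628496-77629945) had 26.4, 33.3 and 25.7 CPM in WT and 17.5, 10.9 and 13.8 CPM in KO. It was 2.04-fold lower in KO (log2 fold change -1.03, SE 0.20, edgeR adjusted p = 2.68e-05), with every KO library below every WT library, and it stayed called with any 1 library left out. The broader and brighter peak 19537 bases upstream (chr9:77615257-77618668) had 32.2, 44.4 and 30.01 CPM in WT and 22.9, 18.2 and 22.0 CPM in KO. It was again without overlap, at a log2 fold change of -0.76 (SE 0.19, edgeR adjusted p = 0.00228), and was not called without WT replicate 4 (adjusted p = 0.0682) or KO replicate 5 (0.123). The other lower peaks were an intronic one 8889 bases downstream of the start (-0.999, SE 0.31, edgeR adjusted p = 0.0227) and an intergenic one 25280 bases downstream, beyond the gene (-0.81, SE 0.21, 0.00422). Of the 6 fits without 1 library, the intronic peak kept its call in 2 (without WT replicate 3 or KO replicate 7) and the intergenic one in 3 (without WT replicate 3, WT replicate 8 or KO replicate 4). In the intergenic peak, KO replicate 4 lay just under the lowest WT library (16.5 CPM), and the other KO libraries had 8.30 and 8.24 CPM. The only Klhl31 peak with a positive fold change, 0.16 (SE 0.27), was annotated to the 3' UTR.

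Klhl40, which stabilises nebulin and LMOD3, was assigned a single peak, at its promoter (chr9:121775753-121778874, ENSMUSG00000074001), and no distal peak. It had 83.3, 100.4 and 69.2 CPM in WT and 95.6, 110.2 and 87.6 CPM in KO. WT and KO overlapped, and the log2 fold change of 0.21 (SE 0.17, edgeR adjusted p = 0.618) had an interval of 2 SE from -0.14 to 0.56, which leaves out a fall of the size seen at Klhl31 or Klhl41.

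Klhl41, which like Klhl40 stabilises nebulin, had 5 peaks, of which the promoter peak was lower. That peak (chr2:69668548-69670992, ENSMUSG00000075307) had 27.0, 41.1 and 29.5 CPM in WT and 21.6, 21.6 and 20.8 CPM in KO. The KO libraries lay together and below every WT library, with a log2 fold change of -0.61 (SE 0.19, edgeR adjusted p = 0.0250). The MEF2 match shown above is in this peak. A further promoter-class peak centred 3055 bases downstream was at -0.33 (SE 0.19, edgeR adjusted p = 0.412), with overlapping groups. The distal peak with the smallest p, 6092 bases upstream and inside Bbs5, was at -0.38 (SE 0.25, 0.489), and the remaining peaks were at 0.09 and -0.10.

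The Xin repeat genes gave opposite signs. Xirp2 had 12 peaks with negative fold changes in all 12, of which 2 were called lower, and Xirp1 had 5 peaks, of which 4 had positive fold changes and none was called. Of all tested peaks, 51.2% had a negative fold change. The signs depend on the scaling: in the authors' deposited table the Xirp2 peaks at 79969, 120243 and 146232 bases were positive (0.15, 0.11 and 0.099). The median of all peaks there was 0.19. Without WT replicate 4 the Xirp2 peak at 34921 bases also turned positive (0.081). This contrast between the genes was not tested.

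Xirp2, the longer Xin repeat gene, is known as a MEF2A target in striated muscle. Its promoter peak (chr2:67445376-67447780, ENSMUSG00000027022) had 27.3, 40.9 and 25.01 CPM in WT and 21.5, 20.8 and 20.0 CPM in KO. All KO libraries were below all WT libraries, at a log2 fold change of -0.59 (SE 0.19, edgeR adjusted p = 0.0357). DESeq2 gave an adjusted p of 0.0787 for this promoter, and total-count scaling gave 0.0559 in edgeR.

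Further along Xirp2, an intergenic peak 84219 bases downstream of the start and past the gene's end (chr2:67529708-67530734) had 9.98, 11.8 and 11.3 CPM in WT and 6.17, 5.51 and 4.12 CPM in KO. It was 2.10-fold lower, with tight and separate groups (log2 fold change -1.07, SE 0.25, edgeR adjusted p = 9.60e-04), and remained called without any 1 library. Its brightest distal peak, intronic at 34921 bases (chr2:67480179-67481667), had means of 33.6 ± 9.81 CPM (WT) and 29.1 ± 2.50 CPM (KO; SD, n = 3), and its log2 fold change of -0.21 (SE 0.19, edgeR adjusted p = 0.660) was within the spread. Just outside the threshold stood 2 more intronic Xirp2 peaks, at 8594 bases (-0.89, SE 0.31, edgeR adjusted p = 0.0580) and 41191 bases (-0.81, SE 0.30, 0.0872), with no overlap between groups in either. The most distant peaks, at 120243 and 146232 bases, lie over B3galt1 and were at -0.09 and -0.07.

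Xirp1, which codes for Xin itself, had a promoter peak (chr9:120023295-120024878, ENSMUSG00000079243) at 51.7, 70.2 and 50.3 CPM in WT and 65.9, 66.4 and 59.5 CPM in KO. The WT range contained all KO values, and the log2 fold change was 0.15 (SE 0.18, edgeR adjusted p = 0.757, 2 SE interval -0.20 to 0.51). An intronic-class peak annotated 6528 bases downstream, over Gm33800 (chr9:120010860-120013080), was its brightest distal peak, with 31.0, 35.1 and 25.9 CPM in WT and 46.7, 36.1 and 45.2 CPM in KO. That distance is counted from a start site other than that of the promoter peak, and the peak lies 675 bases outside the RefSeq span of Xirp1. Every KO library was above every WT library, but the log2 fold change of 0.47 (SE 0.18, edgeR adjusted p = 0.107) missed the threshold. It passed without WT replicate 4 (0.61, adjusted p = 0.0289) and with total-count scaling (0.52, 0.0442). The peak 4054 bases upstream was likewise higher in every KO library without a call, with 27.5, 26.6 and 24.2 CPM in WT and 31.7, 32.3 and 32.6 CPM in KO (0.30, SE 0.19, edgeR adjusted p = 0.448).

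Cmya5 carried the most peaks, 27, and little change in most of them: 15 fold changes were negative, 12 positive, with a median of -0.03. Its promoter peak (chr13:93142365-93145194, ENSMUSG00000047419) had 67.7, 79.4 and 51.5 CPM in WT and 70.0, 77.7 and 66.3 CPM in KO. These overlapped throughout (log2 fold change 0.11, SE 0.18, edgeR adjusted p = 0.851). The brightest distal peak, intronic at 7188 bases (chr13:93135749-93139323), had 65.0, 102.5 and 59.9 CPM in WT and 74.1, 74.8 and 63.0 CPM in KO, with WT replicate 4 standing above the rest. Its log2 fold change was -0.10 (SE 0.18, edgeR adjusted p = 0.853) with all libraries and 0.20 without WT replicate 4.

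Both called Cmya5 peaks lie far beyond the 3' end of the gene and were the members nearest to the threshold from inside. The peak 143910 bases from the start (chr13:93000048-93001580) was lower, with 52.9, 63.1 and 42.8 CPM in WT and 35.2, 37.2 and 36.2 CPM in KO (-0.55, SE 0.18, edgeR adjusted p = 0.0369). Between it and the gene, a peak at 122420 bases (chr13:93021852-93022756), inside the gene model Gm41019, was the single higher peak of the 76, with 9.05, 8.56 and 8.82 CPM in WT and 16.2, 14.1 and 11.9 CPM in KO (0.67, SE 0.23, edgeR adjusted p = 0.0432). Groups were separate at each of them, in opposite directions. The lower peak lost its call in 5 of the 6 fits without 1 library, all but that without WT replicate 8. The higher peak kept it only without WT replicate 8 or KO replicate 7.

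Lmod2, a leiomodin that nucleates and lengthens thin filaments, held the member peaks with the smallest p-values, and both lie downstream of the gene. At 14907 bases from the start (chr6:24611743-24613594, ENSMUSG00000029683), WT had 27.0, 42.3 and 29.5 CPM and KO 10.4, 8.96 and 9.98 CPM. Accessibility there fell 3.38-fold, from 32.9 ± 8.24 to 9.76 ± 0.720 CPM (SD, n = 3), a log2 fold change of -1.76 (SE 0.21, edgeR adjusted p = 2.53e-14). It was called under all 11 alternatives, with adjusted p-values up to 3.19e-04, and was the only member peak called with the authors' library factors. The peak lies 216 bases from the span of the neighbouring gene Wasl, nearer to it than to Lmod2, which is 6329 bases away, and it is the deposited table that assigns it to Lmod2.

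The peak before it, 10280 bases from the start (chr6:24606926-24609158) and 1512 bases past the end of Lmod2, was the brightest distal peak, with 38.4, 47.9 and 36.2 CPM in WT and 23.2, 16.8 and 15.4 CPM in KO. It was 2.22-fold lower with no overlap (log2 fold change -1.15, SE 0.19, edgeR adjusted p = 3.60e-07). The sign at the start site was opposite, without a call. The Lmod2 promoter peak (chr6:24597456-24598180) had 7.82, 13.9 and 12.8 CPM in WT and 18.1, 13.6 and 18.6 CPM in KO, a log2 fold change of 0.54 (SE 0.21, edgeR adjusted p = 0.115) that was called higher without WT replicate 4 (0.74, adjusted p = 0.0364). The promoter-class peak 3006 bases downstream was at -0.41 (SE 0.18, edgeR adjusted p = 0.190). The other Lmod2 peaks were not called and had fold changes of both signs, from -0.71 at 30297 bases downstream to 0.55 at 5799 bases upstream. The former lies inside Wasl, 22322 bases outside the span of Lmod2. Differences between peaks of this locus were not tested.

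Lmod3, the leiomodin whose loss causes nemaline myopathy, was lower at 2 of 6 peaks. Its promoter peak (chr6:97252254-97253398, ENSMUSG00000044086), which also overlaps the gene model Gm32191, had 23.7, 32.3 and 23.3 CPM in WT and 18.4, 16.4 and 15.8 CPM in KO. There was no overlap, and the log2 fold change was -0.65 (SE 0.20, edgeR adjusted p = 0.0194). A peak 6326 bases upstream (chr6:97258566-97259603), inside Gm32191, had 10.6, 15.5 and 12.2 CPM in WT and 8.99, 7.32 and 5.77 CPM in KO, again separate (-0.80, SE 0.23, edgeR adjusted p = 0.0133). It lost its call without WT replicate 4 (adjusted p = 0.151), and when KO replicate 5 (0.120) or 7 (0.166) was dropped. The brightest distal peak, 13741 bases upstream, was at 0.07 (SE 0.21, edgeR adjusted p = 0.921).

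**Figure D3:**
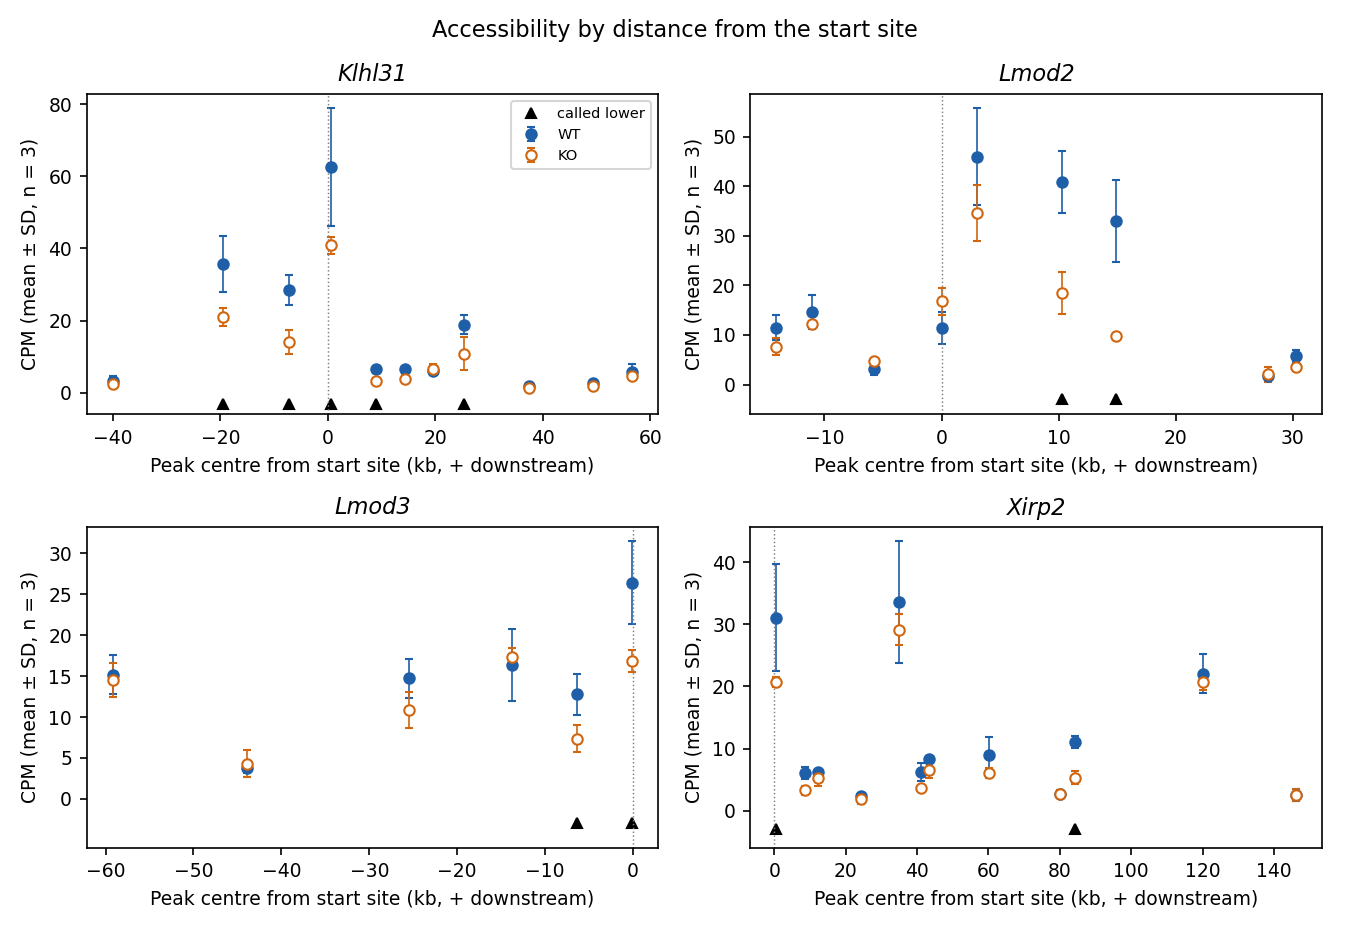
Mean accessibility (CPM ± SD, n = 3) of each peak against the distance of its centre from the start site in kb, for Klhl31, Lmod2, Lmod3 and Xirp2, with triangles under the peaks called lower. At Lmod2 the widest gap between WT and KO is at the peak 14907 bases downstream, while at Lmod3 the lower peaks are the promoter and the nearest upstream peak.

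Of the 65 distal peaks, 30 overlapped the RefSeq span of their own member, and 1 of these was lower, the intronic Klhl31 peak (5.17% of all distal peaks over their assigned gene were lower, where RefSeq had its span). Of the 35 outside it, 8 were lower (4.93% of all distal peaks outside their assigned gene). The difference between these locations was not tested. Assignment of such peaks to a member rests on the deposited table alone.

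Per kb of peak, the most open promoter in WT was that of Xirp1, at 36.2 ± 7.03 CPM per kb (SD, n = 3), followed by Klhl40 at 27.0 ± 4.996 and Klhl31 at 27.0 ± 7.01. Cmya5 (23.4 ± 4.96) and Lmod3 (23.1 ± 4.45) came next, then Lmod2 (15.9 ± 4.46), Klhl41 (13.3 ± 3.09) and Xirp2 (12.9 ± 3.59). Only between Lmod3 and Lmod2 did neighbours in this order have separate WT ranges. In KO the lowest levels per kb were again those of Xirp2 (8.63) and Klhl41 (8.73), and Lmod3 (14.8) was below Lmod2 (23.1).

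**Figure D4:**
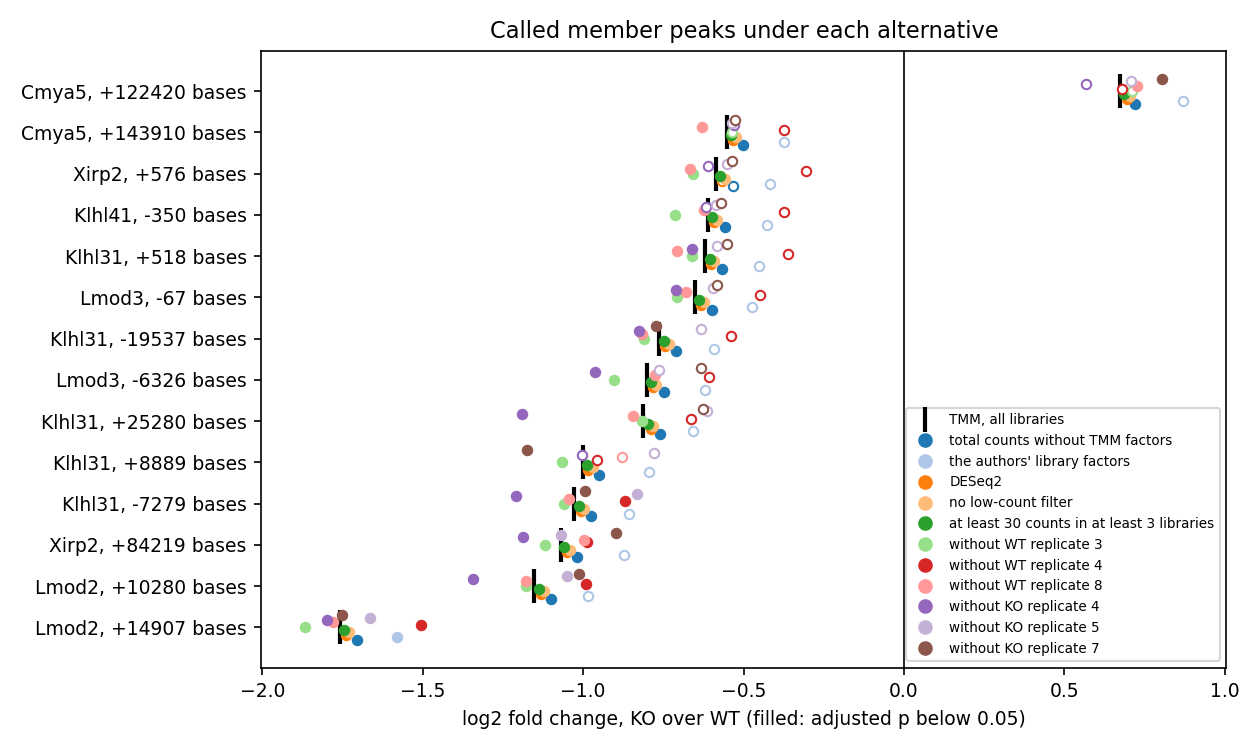
Log2 fold change of KO over WT for the 14 called member peaks with all libraries (black bar) and under each of 11 alternatives (points, filled where the adjusted p was below 0.05), labelled by distance from the start site in bases. All points keep their sign, and the Lmod2 peak at 14907 bases is filled throughout.

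The peaks that stayed called in all 6 fits with 1 library left out were 4: the Klhl31 peak 7279 bases upstream, the Lmod2 peaks at 10280 and 14907 bases and the Xirp2 peak at 84219 bases. All of them are intergenic.

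Other genes of the same pathways had few promoter calls. Over all peaks, lower calls were more frequent than in the whole table for thin filament and nemaline myopathy genes and for Xin, Cmya5 and Z-disc partners. For the BTB-kelch list only 3 peaks were lower, too few to set it apart. None of these counts over all peaks was repeated with a library left out. Over the 12870 genes with a promoter peak within 3 kb of the start, 90 were lower, 115 higher, and the median log2 fold change was 0.06. Among 9 related genes, 8 other BTB-kelch genes and Cul3, all with a tested promoter peak, the median was 0.05 and 1 was lower, Klhl38, from 108.9 ± 33.1 to 73.2 ± 8.53 CPM (SD, n = 3; log2 fold change -0.58, SE 0.17, edgeR adjusted p = 0.0190). Without WT replicate 4 the Klhl38 value was -0.27 (adjusted p = 0.388), and it was also not called when KO replicate 5 (0.137) or 7 (0.201) was dropped, or by DESeq2 (0.0599). Over all 43 peaks of these genes 3 were lower (6.98%, against 4.23% of all tested peaks) and 0 higher.

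None of the 10 thin filament and nemaline myopathy genes outside the members had a called promoter (median -0.09). The smallest p-values were those of the leiomodin Lmod1 (-0.58, SE 0.20, edgeR adjusted p = 0.0507) and of Mypn, which codes for the Z-disc protein myopalladin (-0.48, SE 0.18, 0.104). Counted over all 101 of their peaks, however, 18 were lower (17.8%, close to the 17.1% of the members and above the 4.23% of all tested peaks) and 1 higher. Of 12 partners of Xin, Cmya5 and the Z-disc or costamere, 11 had a tested promoter peak, with a median of -0.07, and Nebl had none. Tln2, coding for the integrin-linked adaptor talin 2, was higher, from 2.96 ± 0.550 to 8.69 ± 1.53 CPM (SD, n = 3; 1.56, SE 0.29, edgeR adjusted p = 9.08e-06), and the other 10 were not called. Over their 165 peaks, 15 were lower (9.09%) and 4 higher (2.42%), against 4.23% and 2.77% of all tested peaks.

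The authors' deposited table gave an adjusted p for 75 of the 76 member peaks. In it 2 peaks were lower (0.872% of all peaks with an adjusted p), both of Lmod2, and 0 were higher (2.44%). The authors' deposited table put the peak at 14907 bases at a log2 fold change of -1.58 and that at 10280 bases at -0.98. The median of its fold changes was 0.0024 over the members and 0.19 over all peaks, so the members lay below the median of all peaks on that scale too. The normalized signal in that table rests on the same near-equal library factors.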

How the data were processed

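ATAC-seq peaks of 3 Prr14-WT and 3 Prr14-KO mouse muscle libraries were used. The authors deposited 1 common list of peaks with whole-number counts per library, a normalized signal (count divided by 1 factor per library), their log2 fold change, p-values raw and adjusted, and a score per peak. The submitters' processing notes name GRCm38 and, without roles, BWA, MACS2, DESeq2 1.6.3, Trimmomatic, bedtools and deepTools. For read shift, duplicates and counting, the tool is not given in the sources used here. Distances are from the peak centre to the deposited start site, which can differ from RefSeq's and, at Xirp1, between peaks. Over the member peaks, the deposited distance departed from that to the deposited gene start by up to 5101 bases.

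All counts were fitted in edgeR 4.0.16 (R 4.3.3; TMM, filterByExpr with minimum count 10, two-sided quasi-likelihood test, Benjamini-Hochberg adjustment over 73896 peaks) and mainly the members' peaks are reported. The procedure was run on simulated counts in which no library deviated from its group, so that run does not bear on the dependence on single libraries. The SE is the fold change divided by the root of F. The members and gene lists were chosen with earlier results of these data known. Peaks named per gene are the promoter peak nearest the start, the distal peak with the smallest p, the brightest distal peak and those called or next to the threshold; further peaks were chosen after their values were seen. Of each gene list the called promoters are named, otherwise the 2 with the smallest p. Alternatives were total-count scaling, the authors' factors, DESeq2 1.42.0, no filter, a stricter filter and leaving out each library.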

Additional observations from a re-analysis of the deposited data

How the results depend on the processing

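Called peaks depended on the scaling and on single libraries. The authors' library factors were near-equal (0.977 to 1.035) and left depth differences largely in place. With them the counts were 1 lower peak in all, 0 promoter and 1 distal, and 0 higher peaks (all or distal), and the distal median log2 fold change moved to 0.011. With total counts, 2 peaks were higher, both distal. Leaving out 1 library gave 4 to 12 lower peaks in all, 0 to 4 at promoters and 4 to 8 distal, and 0 to 2 higher peaks in all, 0 to 1 at promoters and 0 to 1 distal. The medians then ran from -0.38 to -0.11 for promoters and from -0.26 to -0.04 for distal peaks. Of the 21 named peaks over 11 alternatives, 188 values kept direction and side of the threshold, 36 lost their call, 3 gained one and 4 changed sign, none of these called: the Xirp2 peak at 34921 bases (0.081 without WT replicate 4, -0.31 to 0.081 over the fits without 1 library), the Cmya5 peak at 7188 bases (0.061 with the authors' factors, 0.20 without WT replicate 4, -0.19 to 0.20 without 1 library) and the Lmod3 peak 13741 bases upstream (-0.042 without WT replicate 3, -0.042 to 0.35 without 1 library). The cause was not tested. Members minus all peaks, by median, ran from -0.27 without WT replicate 3 to -0.06 without WT replicate 4. No paired analysis was possible because the groups share only 1 replicate number, 4.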

Other observations

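Over the 6 libraries, the promoter peaks most like the mean of the members' promoter profiles, among 9693 genes with a promoter peak of at least 10 CPM, were those of Apobec2 (Pearson r = 0.998), Clec18a (0.991), Sh3bgr (0.991), Mrpl42 (0.991) and Hspb9 (0.990). These values are a description over 6 libraries, in which all peaks of a library share its depth and scaling. The mean profile stands highest in WT replicate 4, at 1.21 on its scaled axis against -0.51 to -0.02 in the other 5.

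Member promoter peaks were broad, with a median width of 2318 bases against 1094 for all promoter peaks. Their median level was 26.9 CPM against 17.1. These levels are per peak and not per kb, so they do not show that member promoters were more open. Of the distal member peaks, 21 lay more than 50 kb from the start site.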
